A study of Mus musculus with 6 samples.

Results

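The genes of ribonucleotide reductase and of deoxynucleotide (dNTP) supply were examined in whole mouse kidneys with and without deletion of the transferrin receptor TfR1. They were chosen by symbol, for what their products do, and all 9 were found among the 24422 gene symbols of the count tables: Rrm1, Rrm2, Rrm2b, Tyms, Tk1, Tk2, Dut, Dck and Samhd1. The 6 libraries came from kidneys of C57BL/6 mice at postnatal day 13, fed a diet sufficient in iron (220 ppm). There were 3 Control kidneys, labelled wild type, and 3 TfR1 knockout kidneys, labelled Tfr1f/f;SixCre, in which floxed exons of the receptor gene Tfrc are removed by a Six2Cre driver active in the progenitors of nephron tubules. The deletion was incomplete, and the study describes tubule cells that kept the receptor. The data are poly-A RNA read counts per gene. Values below are counts divided by the library's size factor, called normalized counts. The comparison asked how transcripts for making dNTPs stood in kidneys whose nephron lineage had lost the receptor for transferrin-bound iron.

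Ribonucleotide reductase turns ribonucleoside diphosphates into the deoxy forms used for DNA. Its large subunit, Rrm1, holds the catalytic and regulatory sites, and its small subunit, Rrm2 or Rrm2b, carries an iron centre and a tyrosyl radical. Rrm2 is made in S phase and removed at mitosis, whereas Rrm2b is kept in resting cells and is a target of p53. Thymidylate synthase (Tyms) makes dTMP, Dut removes dUTP, the kinases Tk1, Tk2 and Dck salvage deoxynucleosides, and Samhd1 breaks dNTPs down.

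In TfR1 knockout kidneys, Rrm1 and Tyms fell, to 0.56 and 0.63 times their Control mean, and none of the 9 genes rose (DESeq2 Wald test, adjusted p under 0.05, 16509 genes tested). Over all genes tested, 7.18% were called lower and 7.74% higher at this threshold. edgeR's quasi-likelihood test called only Rrm1 lower and none higher, against 2.8% lower and 3.22% higher of its 15308 genes. None of the 9 passed with a fold change of at least 2 as well, a rule met by 4.46% of all genes in the lower direction and by 4.41% in the higher one. The groups did not overlap, with every knockout library lower, for 4 of the 9 (Rrm1, Tyms, Dut and Dck), and this was so for 16.9% of all genes tested. No member had every knockout library higher, against 16.9% of all genes. At an unadjusted p under 0.05, both tools had 3 members lower (Rrm1, Tyms and Dut) and 0 higher, against 13.5% lower and 13.8% higher of all genes in DESeq2, and 13% and 12.8% in edgeR. The median log2 fold change was -0.48 over the 9 and 0.0071 over all genes tested, and 7 of the 9 were below 0, against 49.3% of all genes. In a whole organ, fewer cells of a type cannot be told apart from less RNA per cell.

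**Figure D1:**
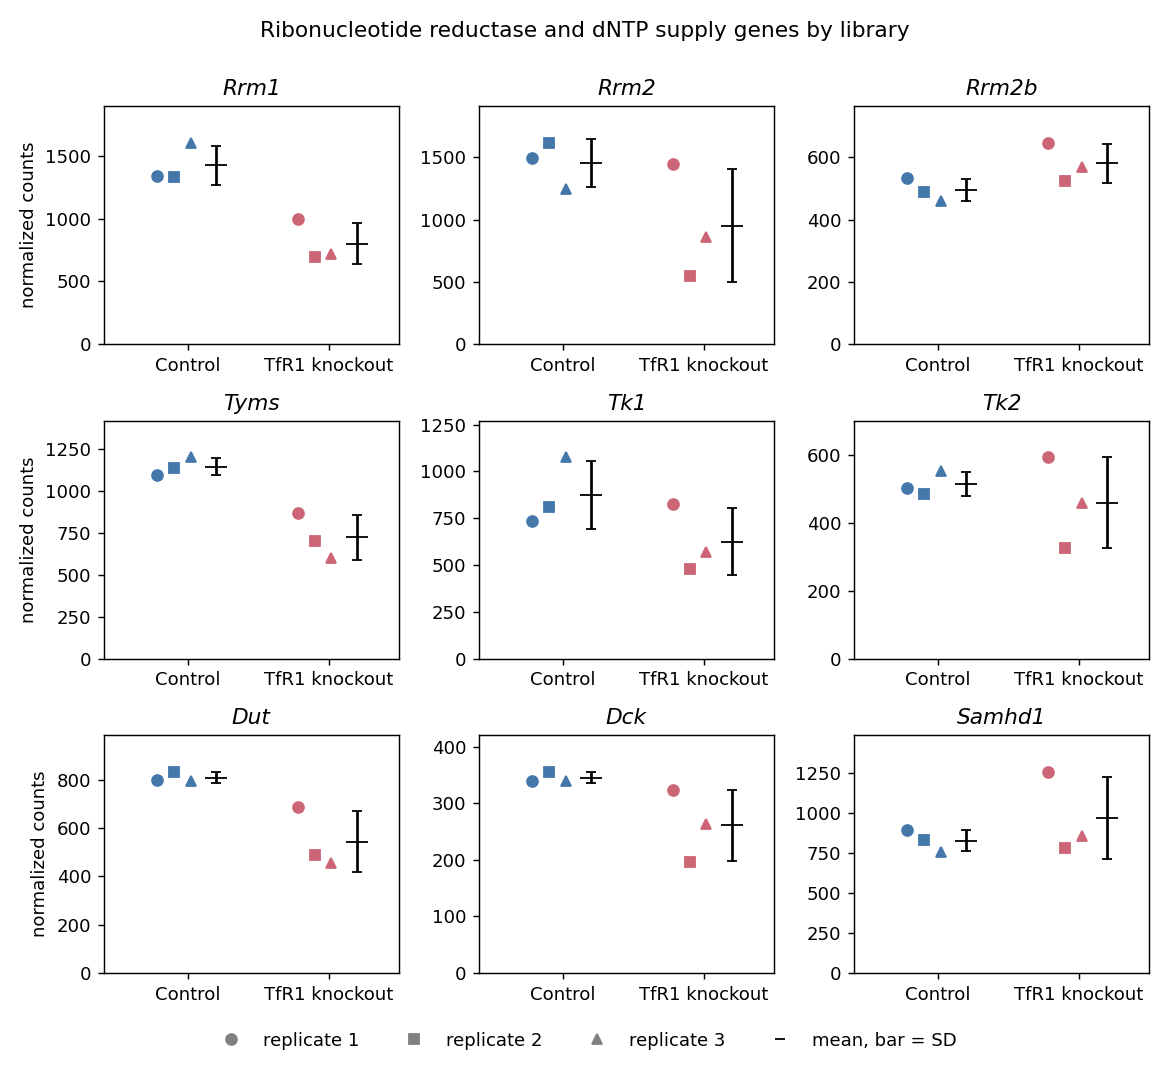
Normalized counts (vertical axes, each from 0) of the 9 genes in the 3 Control and 3 TfR1 knockout libraries, with 1 symbol per replicate and the group mean ± SD beside the points. TfR1 knockout 1 is the highest knockout library in all 9 panels, and the groups are separate for Rrm1, Tyms, Dut and Dck.

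The knockout libraries differed among themselves. TfR1 knockout 1 had the highest of the 3 knockout values for 9 of 9 genes, and TfR1 knockout 2 had the lowest for 7 of 9. The median over the 9 of the log2 difference from the Control mean was -0.06 in TfR1 knockout 1, -0.73 in TfR1 knockout 2 and -0.60 in TfR1 knockout 3. The coefficient of variation was larger in the knockout than in the Control group for 9 of 9. Shares of all genes with these patterns were not computed, so none of these counts is read as particular to the 9. Without TfR1 knockout 1, 5 members were called lower by DESeq2 (Rrm1, Rrm2, Tyms, Tk1 and Dut) and 4 by edgeR. More of all genes were called lower in that fit too, 10.5% by DESeq2 and 4.56% by edgeR. Leaving out any other single library gave 1 or 2 lower calls among the 9 with DESeq2, and 0 with edgeR, while the share of all genes called lower ran from 3.59% to 6.78% with DESeq2 and from 0.477% to 2.89% with edgeR.

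**Figure D2:**
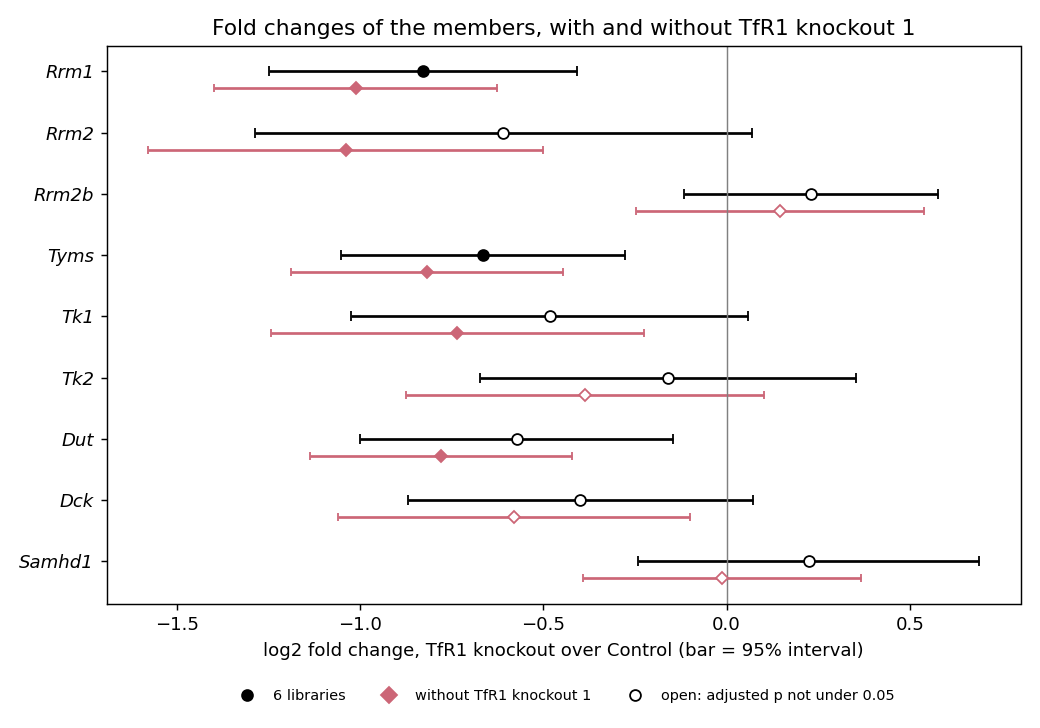
Log2 fold change of TfR1 knockout over Control (horizontal axis) with its 95% interval for the 9 genes, from 6 libraries (black circles) and without TfR1 knockout 1 (red diamonds), filled where the DESeq2 adjusted p is under 0.05. From 6 libraries Rrm1 and Tyms are filled, and without TfR1 knockout 1 the markers of Rrm1, Rrm2, Tyms, Tk1 and Dut are.

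A few facts of the whole series touch these values. Total counts ran from 16591156 to 22898008 per library. Tfrc itself did not separate the groups (log2 fold change 0.11, SE 0.29, DESeq2 adjusted p 0.853), and since the floxed exons are a small piece of its transcript it does not check the labels. Control 3 stood apart in markers of other cells: the summed level of 6 stroma genes (among them Pdgfra, Pdgfrb and Col1a1) was 105527 normalized counts there, against 51725 and 53290 in the other Control libraries. For 8 proximal tubule genes (among them Lrp2, Cubn and Slc34a1), the sum in Control 3 was 59310, against 116282 and 115416. Without Control 3 DESeq2 again called 2 members lower. The erythroid markers Hba-a1 and Hbb-b1 were listed at 0 in every library.

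Rrm1 (chr7:109590209-109618285, forward strand of the mm9 build, protein-coding, merged exons in 19 blocks) is the large subunit that every form of the enzyme needs. It had 1341, 1331 and 1609 normalized counts in Control 1 to 3, and 994, 693 and 720 in TfR1 knockout 1 to 3. All knockout libraries were below all Control libraries. The means were 1427 ± 158 and 803 ± 167 (SD, n = 3 each). The log2 fold change was -0.83 (SE 0.21, DESeq2 adjusted p 0.00193, edgeR adjusted p 0.0408). It was called under all 13 other settings tried for each gene (other tests, scalings and filters, and DESeq2 with each library left out), with log2 fold changes from -1.01 to -0.73, but in edgeR the call was lost when any library other than TfR1 knockout 1 was left out.

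Rrm2 (chr12:25393106-25399011, forward strand) is the small subunit of S phase. It had 1495, 1619 and 1245 normalized counts in the Control libraries, and 1444, 549 and 862 in the knockout libraries. TfR1 knockout 1 lay within the Control range and the other two lay below it. The knockout coefficient of variation was 47.7%, the widest of the 9, and the highest knockout library held 2.63 times the lowest. The log2 fold change was -0.61 (SE 0.35, DESeq2 adjusted p 0.241, 95% interval -1.29 to 0.07). Without TfR1 knockout 1 it was -1.04 (DESeq2 adjusted p 0.00202), and without TfR1 knockout 2 it was -0.33 (adjusted p 0.555). The former was the only 1 of the 13 other settings with a call.

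Passing the test for Rrm1 and missing it for Rrm2 does not show that the subunits differed. The log2 ratio of Rrm1 to Rrm2 was -0.16, -0.28 and 0.37 in the Control libraries, and -0.54, 0.34 and -0.26 in the knockout libraries. The groups overlapped, with a mean difference of -0.13 (exact permutation test, 2-sided, p 0.6). This ratio is 1 of 8 computed here. The smallest p that 3 against 3 libraries allow is 0.1, so none of the 8 could pass 0.05.

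Rrm2b (chr15:37853707-37891073, reverse strand), the small subunit of resting cells, had 532, 490 and 461 normalized counts in Control libraries, and 647, 523 and 569 in knockout libraries. TfR1 knockout 2 lay within the Control range and the other two stood above it. The log2 fold change was 0.23 (SE 0.18, DESeq2 adjusted p 0.415, 95% interval -0.12 to 0.58), so a rise of more than 1.49-fold lies outside the interval. Set against Rrm2, however, Rrm2b separated the groups. Its log2 ratio to Rrm2 was -1.49, -1.72 and -1.43 in Control libraries, and -1.16, -0.069 and -0.60 in knockout libraries. Every knockout library was higher, with a mean difference of 0.94 (exact permutation test, 2-sided, p 0.1, adjusted over the 8 ratios 0.133). Per kilobase of the longest coding transcript, Rrm2b made up 14.6%, 12.7% and 15.1% of small subunit transcripts in Control libraries, and 17.7%, 31.4% and 24.1% in knockout libraries. The share was lowest among knockout libraries in TfR1 knockout 1, where Rrm2 was within the Control range. Leaving out 1 library at a time kept the difference in log2 ratio between 0.67 (without TfR1 knockout 2) and 1.22 (without TfR1 knockout 1).

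**Figure D3:**
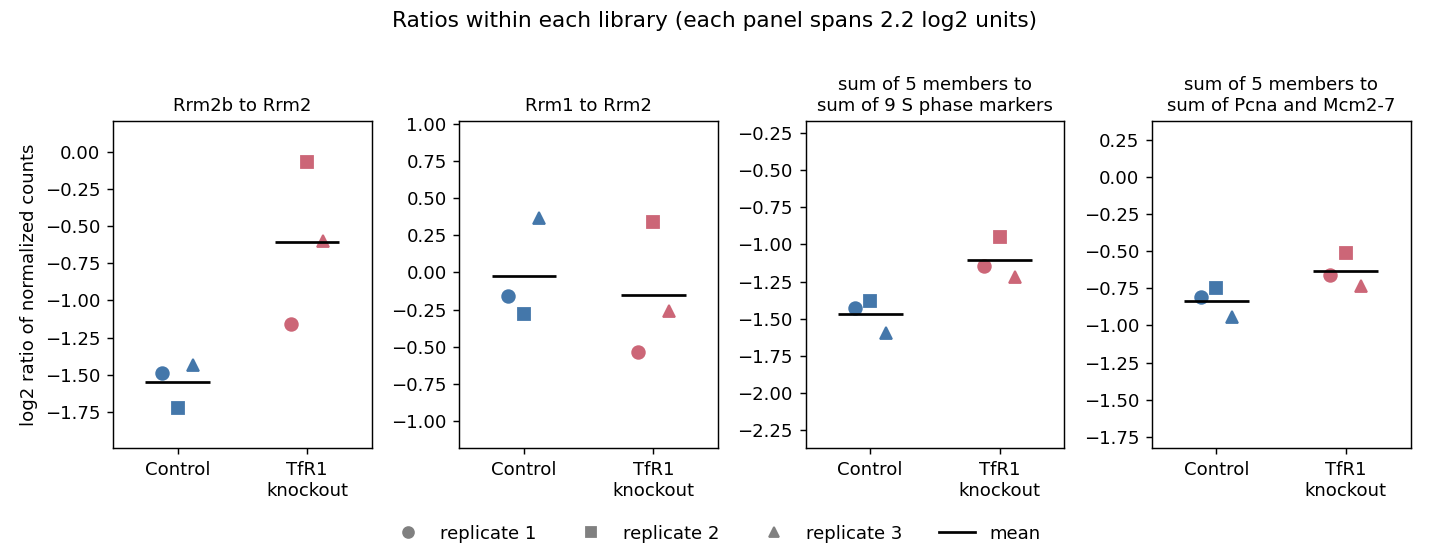
Log2 ratios of normalized counts within each library (vertical axes, each spanning the same range of log2 units), with 1 symbol per replicate and a line at the group mean. Rrm2b to Rrm2 lies from -1.72 to -1.43 in Control and from -1.16 to -0.069 in TfR1 knockout kidneys, Rrm1 to Rrm2 overlaps, and the summed S phase members stand higher against the marker sum in every knockout library, by less when Pcna and the Mcm genes alone are the markers.

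Tyms (chr5:30384742-30400157, reverse strand), which methylates dUMP to dTMP, had 1097, 1138 and 1202 normalized counts in Control libraries, and 867, 701 and 599 in knockout libraries. The groups did not overlap. The means were 1146 ± 53.3 and 722 ± 135 (SD, n = 3 each), with a log2 fold change of -0.67 (SE 0.20, DESeq2 adjusted p 0.00913). The call was lost in edgeR (adjusted p 0.0554) and limma-voom (adjusted p 0.0508), and with DESeq2 without Control 1, Control 2 or TfR1 knockout 3 (adjusted p 0.0768, 0.0871 and 0.0954). An annotated gene on the opposite strand, Gm17448, shares 14 exonic bases with Tyms, and the pseudogene Tyms-ps had at most 5 counts in any library.

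Dut (chr2:125072926-125084344, forward strand), which keeps dUTP out of DNA and makes the substrate of Tyms, had 801, 834 and 793 normalized counts in Control libraries, and 688, 489 and 455 in knockout libraries. The groups did not overlap, and the Control libraries lay within 1.05-fold of each other. Its log2 fold change was -0.57 (SE 0.22), and the adjusted p was 0.0556 with DESeq2 and 0.107 with edgeR. DESeq2 called it with total-count scaling (adjusted p 0.0357), with upper-quartile scaling (0.0352), and without TfR1 knockout 1 (3.60e-04). These were the only 3 of the 13 other settings with a call. Without TfR1 knockout 3 the log2 fold change was -0.46 (DESeq2 adjusted p 0.272).

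The promoters of Rrm1 and Tyms, the members called lower by DESeq2, are shown with that of Rrm2, the partner of Rrm1. No contrast between Rrm1 and Rrm2 is meant, since their log2 ratio overlapped between groups. RefSeq promoters (GRCm38.p6) were on hand for 8 of the 9 genes, Rrm2b being without an entry. Each run is the 250 bases before the RefSeq start, 5′ to 3′ along the gene, and each matched mm9 exactly once on its chromosome, at chr7:109589959-109590208 (Rrm1, forward), chr12:25392869-25393118 (Rrm2, forward) and chr5:30400166-30400415 (Tyms, reverse). Capitals mark a CCAAT box, which is the letters of its name, or an E2F-type word, on either strand, so that a capital run may be the complement of the word. The E2F-type words searched were TTCCCGC and TTGGCGC, together with their relatives TTCGCGC and TTGCCGC. The word TTGGCGC can share letters with a CCAAT box on the other strand, but no marked words do so in these windows.
Rrm1: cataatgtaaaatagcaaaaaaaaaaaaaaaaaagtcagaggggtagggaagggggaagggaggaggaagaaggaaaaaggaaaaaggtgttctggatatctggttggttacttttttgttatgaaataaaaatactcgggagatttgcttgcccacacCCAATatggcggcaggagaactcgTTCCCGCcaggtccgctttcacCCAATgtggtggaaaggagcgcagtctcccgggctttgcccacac
Rrm2: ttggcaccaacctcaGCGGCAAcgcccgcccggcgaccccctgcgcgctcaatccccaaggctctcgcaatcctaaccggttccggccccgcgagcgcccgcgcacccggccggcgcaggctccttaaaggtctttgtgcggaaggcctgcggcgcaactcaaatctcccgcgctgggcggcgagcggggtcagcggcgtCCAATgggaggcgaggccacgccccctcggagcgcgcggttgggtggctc
Tyms: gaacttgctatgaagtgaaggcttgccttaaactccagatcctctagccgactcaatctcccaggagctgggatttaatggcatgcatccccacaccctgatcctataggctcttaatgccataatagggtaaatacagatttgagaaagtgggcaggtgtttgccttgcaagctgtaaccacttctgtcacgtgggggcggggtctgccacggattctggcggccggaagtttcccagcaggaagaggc

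In Rrm1, TTCCCGC began 67 bases before the start, between CCAAT boxes at 91 and 45 bases. In Rrm2, TTGCCGC stood on the reverse strand 235 bases before the start, and a CCAAT box 50 bases before it. The Tyms window held none of the words searched, which says only that these letters are not in it. Over the 8 promoters, 2 held an E2F-type word and 2 a CCAAT box, both times Rrm1 and Rrm2. Of 17287 promoters of genes in the count tables, 10.1% held an E2F-type word and 36% a CCAAT box.

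The salvage kinases were lower in the mean but none passed the test. Tk1 (chr11:117676840-117687406, reverse strand), the cytosolic thymidine kinase of S phase, had 732, 808 and 1076 normalized counts in Control libraries, and 824, 478 and 568 in knockout libraries. TfR1 knockout 1 lay within the Control range and the other two lay below it. The log2 fold change was -0.48 (SE 0.28, DESeq2 adjusted p 0.248). Without TfR1 knockout 1 it was -0.74 (DESeq2 adjusted p 0.0287), the only call among the 13 other settings. Without TfR1 knockout 2 it was -0.32 (DESeq2 adjusted p 0.564). Afmid, on the opposite strand, shares 83 exonic bases with Tk1 and had 511 to 807 counts per library. Whether counting used strand is not given in the sources used here, so reads in those bases are uncertain.

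Tk2 (chr8:106750591-106772458, reverse strand), the mitochondrial thymidine kinase, had 505, 484 and 554 normalized counts in Control libraries, and 595, 325 and 460 in knockout libraries. Knockout values lay on both sides of the Control range, and the log2 fold change of -0.16 (SE 0.26, DESeq2 adjusted p 0.744) was within its error. It was 0.039 without TfR1 knockout 2. Dck (chr5:89194021-89212306, forward strand), which phosphorylates deoxycytidine and purine deoxynucleosides, had 339, 356 and 340 normalized counts in Control libraries, and 323, 197 and 263 in knockout libraries. All knockout libraries were below all Control libraries, TfR1 knockout 1 by little. Its log2 fold change was -0.40 (SE 0.24, DESeq2 adjusted p 0.278). Dck is known for its high level in lymphoid cells, and the summed level of 8 lymphocyte markers (among them Cd3e, Cd3g and Cd4) was 120 to 211 normalized counts in Control and 58.9 to 123 in knockout libraries. The part of lymphocytes in the Dck values was not tested.

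Samhd1 (chr2:156923265-156961001, reverse strand), the dNTP triphosphohydrolase known from myeloid and resting cells, had 893, 828 and 757 normalized counts in Control libraries, and 1256, 780 and 856 in knockout libraries. TfR1 knockout 1 stood above all Control libraries and the other two lay within their range. Its log2 fold change was 0.22 (SE 0.24, DESeq2 adjusted p 0.583), and it was -0.013 without TfR1 knockout 1. Macrophage markers moved with the groups: 7 of 10 rose in DESeq2 and 6 in edgeR, and their summed level was 2748, 2911 and 4485 normalized counts in Control libraries, and 10067, 7992 and 8321 in knockout libraries. TfR1 knockout 1 was highest in the macrophage sum and in Samhd1. It was the highest knockout library for all 9 members, so its place is not particular to Samhd1. Among Control libraries, Control 3 had the highest macrophage sum (4485) and the lowest Samhd1 (757). Of the defining markers, Cd68 rose (log2 fold change 1.52, DESeq2 adjusted p 1.74e-05), while Csf1r and Adgre1 had adjusted p of 0.199 and 0.146. The part of macrophages in the Samhd1 values was not tested.

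Levels of different genes were compared per kilobase of the longest coding transcript, in normalized counts per kb. In Control kidneys the order was Rrm2 (663 ± 86.7), Tk1 (606 ± 126), Dut (415 ± 11.2), Rrm1 (357 ± 39.5), Tyms (295 ± 13.7), Tk2 (214 ± 15.0), Samhd1 (210 ± 17.4), Dck (112 ± 3.2) and Rrm2b (108 ± 7.8), each as mean ± SD with n = 3. Neighbours whose Control ranges overlapped were Rrm2 and Tk1, Tk2 and Samhd1, and Dck and Rrm2b. Rrm2 and Tk1 were also the top pair in knockout kidneys, at 434 ± 207 and 433 ± 125. Samhd1 was at 246 ± 65.1 there, and its range overlapped that of Rrm1 (201 ± 41.7). The order depends on the length used. With all annotated exons merged, a choice made after seeing the data, Tk1 came below Rrm1, Dut, Tk2 and Tyms in Control kidneys, and Samhd1 below Rrm1, Tk2 and Tyms in knockout kidneys, where with the longest transcript it came above them.

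Rrm1, Rrm2, Tyms, Tk1 and Dut are genes of S phase, so they were set against 9 markers of dividing cells, Pcna, the 6 Mcm helicase genes, Mki67 and Top2a. Of these markers 8 fell in DESeq2 and 2 in edgeR, with a median log2 fold change of -1.02. Mki67, the proliferation antigen, fell (log2 fold change -1.49, DESeq2 adjusted p 2.95e-05), as did Top2a, which untangles replicated DNA (-1.14, adjusted p 5.27e-04), and the helicase gene Mcm6 (-1.02, adjusted p 0.00499). Their summed level was 14713, 14936 and 17878 normalized counts in Control libraries, and 10675, 5629 and 7470 in knockout libraries. The order of the knockout libraries, with TfR1 knockout 1 highest and TfR1 knockout 2 lowest, was also that of 7 of the 9 genes. Tyms and Dut were the exceptions, and the share of all genes with this order was not computed.

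The log2 ratio of the 5 summed S phase members to the marker sum was -1.43, -1.38 and -1.59 in Control libraries, and -1.15, -0.95 and -1.22 in knockout libraries. Every knockout library was higher, with a difference of 0.36 (exact permutation test, 2-sided, p 0.1, adjusted over the 8 ratios 0.133). The sums of members thus stood higher relative to the sum of markers, but the size of this depended on the markers. Mki67 and Top2a held 34.9% to 36.2% of the marker sum in Control and 26.3% to 28.6% in knockout libraries. With Pcna and the Mcm genes alone, an alternative chosen after seeing the data, the difference was 0.20, again with no overlap. With the median of per-gene log2 values in place of sums it turned to -0.085 with overlap (exact permutation p 0.5). Taken singly against the sum of all 9 markers, Rrm1, Tyms, Tk1 and Dut were higher in every knockout library (differences 0.20, 0.36, 0.54 and 0.45). Rrm2 overlapped (0.33, exact permutation p 0.3). These single ratios were not computed with Pcna and the Mcm genes alone, so their dependence on Mki67 and Top2a was not tested. By log2 fold change, Rrm1 (-0.83) lay below Pcna, Mcm2, Mcm4 and Mcm7 (-0.73 to -0.65) and above the other markers.

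The other genes read, in 5 lists of dNTP metabolism and neighbouring pathways such as purine salvage, held calls in both directions. They are called the other dNTP genes below. Of 53 tested by DESeq2, 4 were lower and 9 higher, against 7.18% lower and 7.74% higher over all genes. Of 54 tested by edgeR, 1 was lower and 5 higher, against 2.8% lower and 3.22% higher over all genes. In both tools the lower count was near the share over all genes, so it is not read as a result about these lists. Without TfR1 knockout 3 the DESeq2 count of lower genes was 1, and without Control 2 it was 2. Total-count scaling moved the median of all genes by -0.10 on the log2 scale, and the calls over all genes from 1186 lower and 1277 higher to 1407 lower and 996 higher.

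In the thymidylate and folate cycle, which gives Tyms its methylene group, 2 of 9 fell and 2 rose. Dtymk, the kinase that turns dTMP into dTDP, had 954, 1019 and 1138 normalized counts in Control libraries, and 755, 521 and 598 in knockout libraries. Its log2 fold change was -0.73 (SE 0.21, DESeq2 adjusted p 0.00565, edgeR adjusted p 0.0525). Shmt1, the cytosolic serine hydroxymethyltransferase, had a log2 fold change of -0.64 (DESeq2 adjusted p 0.0568), and Dctd, which deaminates dCMP, one of -0.41 (0.502). Mthfd2, a mitochondrial folate enzyme, had 273, 249 and 286 normalized counts in Control libraries, and 1240, 922 and 988 in knockout libraries. It rose by 1.96 on the log2 scale (SE 0.20, DESeq2 adjusted p 9.60e-21), and Mthfd1l, of the same compartment, by 1.16 (SE 0.34, 0.00796). Mthfd1l was not called by edgeR (adjusted p 0.0802).

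Of 17 salvage genes and kinases, 2 fell and 3 rose. The nucleoside diphosphate kinases Nme3 and Nme4 were lower (log2 fold changes -0.68 and -1.32, DESeq2 adjusted p 0.00424 and 0.0130), neither of them called by edgeR. The purine salvage genes Pnp, Hprt and Aprt rose (0.81, 0.72 and 0.50, with DESeq2 adjusted p of 1.29e-06, 7.96e-06 and 0.0341). Aprt was not called by edgeR (adjusted p 0.0864). Dguok, the mitochondrial deoxyguanosine kinase, had a log2 fold change of -0.36 (adjusted p 0.323). Of 11 tested genes that remove nucleotides or clean the pool, the 5′-nucleotidases Nt5e and Nt5c rose (1.43 and 0.56, DESeq2 adjusted p 4.04e-04 and 0.00830). Nt5c was not called by edgeR (adjusted p 0.0589). The list's Upp2 got no p from DESeq2, by outlier filtering. None of 9 nucleoside transporters was called by DESeq2 or edgeR, with 1 higher and 0 lower at an unadjusted p under 0.05 in DESeq2 and 0 in edgeR.

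Ribonucleotide reductase is recharged by thioredoxin and glutaredoxin. Of 7 genes of these systems, Txnrd1 (thioredoxin reductase) and Gsr (glutathione reductase) rose, by 1.01 and 0.74 on the log2 scale (DESeq2 adjusted p 3.39e-05 and 0.00957). Gsr was not called by edgeR (adjusted p 0.0672). None of the 7 fell, and the list median was 0.24. Txnrd1 had 2426, 2456 and 1677 normalized counts in Control libraries, and 4188, 4747 and 4295 in knockout libraries, so its groups were apart.

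**Figure D4:**
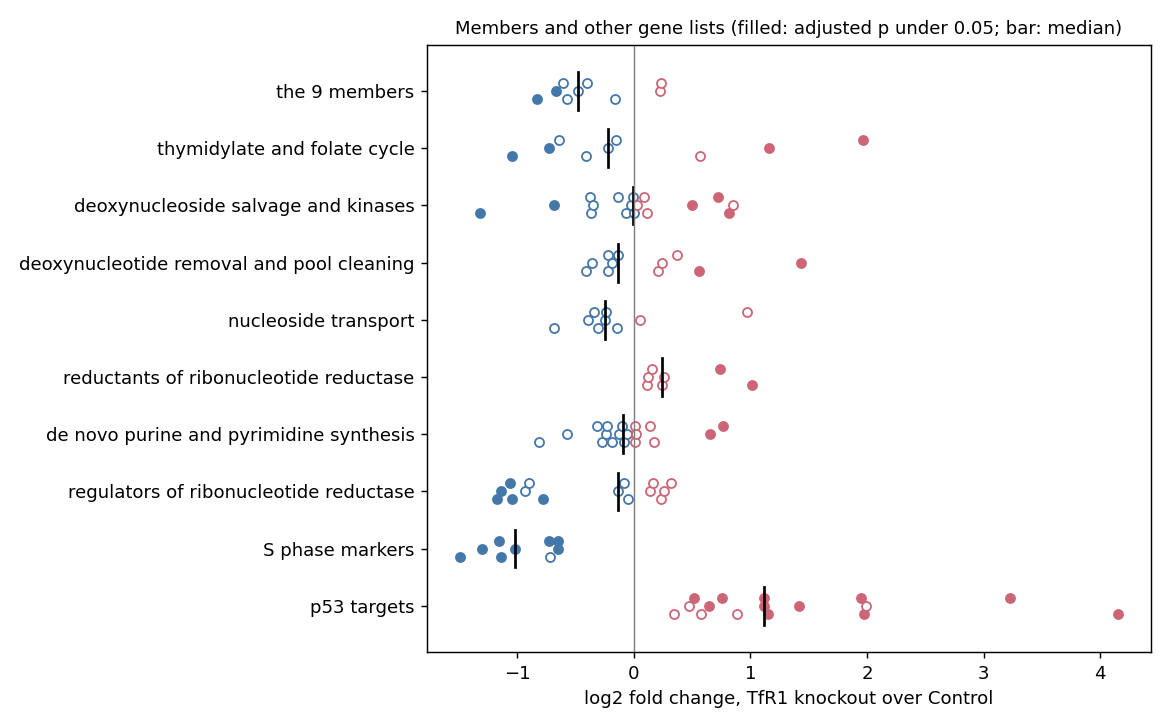
Log2 fold change of TfR1 knockout over Control (horizontal axis) for the 9 genes and 9 other lists, with 1 point per gene tested, filled where the DESeq2 adjusted p is under 0.05, and a bar at each list's median. The medians of the 9 genes (-0.48) and of the S phase markers (-1.02) lie below 0, and that of the p53 targets (1.12) above. The other lists of dNTP metabolism and neighbouring pathways hold filled points on both sides, on one or on none.

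Regulators of the enzyme were also read. Of 15, 5 were lower and none higher in DESeq2 (edgeR 1 lower and 0 higher). At an unadjusted p under 0.05, DESeq2 had 7 lower and 0 higher, and edgeR 5 lower and 1 higher. The called genes included Ccna2, a cyclin of S phase and G2 (log2 fold change -1.17, DESeq2 adjusted p 5.14e-04), E2f7, a repressor of E2F target genes (-1.05, adjusted p 0.00552), and the checkpoint kinase Chek1 (-1.07, adjusted p 0.0120). E2f1, a transcriptional activator of S phase genes, had 421, 434 and 354 normalized counts in Control libraries, and 340, 80.6 and 226 in knockout libraries. Its groups did not overlap, but the change of -0.90 (SE 0.45) missed the threshold (DESeq2 adjusted p 0.173).

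Trp53, whose product p53 activates Rrm2b, had a log2 fold change of 0.16 (DESeq2 adjusted p 0.656). Of 16 p53 targets other than Rrm2b, 11 rose in DESeq2 and 7 in edgeR, and none fell. Cdkn1a, the p21 inhibitor of the cell cycle, had 890, 771 and 675 normalized counts in Control libraries, and 5857, 10064 and 5925 in knockout libraries. It rose by 3.23 (SE 0.27, DESeq2 adjusted p 6.61e-30), Eda2r by 4.15 (6.05e-33) and Zmat3 by 1.41 (1.49e-11). The summed level of the 16 was 25816, 55259 and 28414 in TfR1 knockout 1 to 3. In that sum Trp53inp1 alone, whose groups overlapped, held 1728, 12487 and 2954. Most of the 16 were highest in TfR1 knockout 2, while Phlda3, Gtse1 and Tigar were lowest there. The library highest in that sum, TfR1 knockout 2, was the lowest of the knockout libraries in Rrm2b. It was the lowest knockout library for 7 members, Rrm2b among them, so its place is not particular to Rrm2b. The part of p53 in the Rrm2b values was not tested.

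Other cell types moved with the groups too, and their part in the values of the 9 genes was not tested. The summed level of 5 nephron progenitor markers was 544, 597 and 718 normalized counts in Control libraries, and 395, 353 and 489 in knockout libraries, but its genes went different ways. Meox1, which makes up most of the sum, was lower in knockout kidneys (log2 fold change -0.90, DESeq2 adjusted p 0.00827), Eya1 was higher (2.11, DESeq2 adjusted p 4.18e-04), and Six2 was at 8.0 normalized counts or fewer in every library. The sum of 5 thick ascending limb genes (among them Umod, Slc12a1 and Cldn16) ran from 45941 to 93793 in Control and from 13387 to 25209 in knockout libraries. For 4 distal convoluted tubule genes the sum was 18844 to 36496 in Control and 8234 to 14534 in knockout libraries. For 6 collecting duct genes the sum was higher in every knockout library (30831 to 64666, against 11113 to 19434), but the genes went different ways. Of these 6, 3 rose and 2 fell in DESeq2 (1 and 1 in edgeR). Aqp2 alone held 17805, 50719 and 23564 normalized counts in TfR1 knockout 1 to 3. Endothelial and stromal sums overlapped between groups. The proximal tubule sum overlapped through Control 3, and of its 8 genes 3 fell and 1 rose in DESeq2.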

How the data were processed

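The authors prepared poly-A TruSeq libraries (single-end reads), trimmed reads with Trimmomatic, aligned them to mm9 with TopHat2 2.0.11 after CASAVA 1.8.2, kept unique alignments and counted them per gene with HTSeq. The deposited values are these raw counts, from which reads with several matches are missing. Groups and replicate numbers came from the labels (3 Control, 3 TfR1 knockout, given as biological replicates). p-values measure the spread between these samples. DESeq2 1.42.0 (R 4.3.3, Wald test, median-ratio size factors, no covariate, adjusted p under 0.05) was the main test, as in the study. Independent filtering set the lowest mean count tested at 3.51. edgeR 4.0.16 and limma 3.58.1 (voom) were alternatives. The code was tested on simulated counts with the spread of these libraries, where DESeq2 made a larger share of false calls than edgeR or limma-voom, so a call by DESeq2 alone is less certain. Ratios used a pseudocount of 1 and exact permutation tests. Positions are GENCODE's, on mm9. The members and gene lists were chosen with earlier results of these data known. From lists, at most 3 genes per direction with the smallest DESeq2 p were named, plus Dtymk, Dctd, Dguok, Shmt1, E2f1, Cdkn1a and Trp53, and for cell markers the first 3 of a list. Some items are not reported here. Same-numbered samples' deviations correlated by -0.038, 0.055 and 0.090, so the numbers were not taken as pairs.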

Additional observations from a re-analysis of the deposited data

How the results depend on the processing

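Of 117 comparisons of a member's log2 fold change with an alternative, 105 kept direction and side of the threshold, 5 lost and 5 gained a call, and 2 changed sign without being called: Tk2 (-0.39 to 0.039 with each library left out, positive without TfR1 knockout 2) and Samhd1 (-0.013 to 0.36, negative without TfR1 knockout 1). The count of members called lower was 2, and became 1 with edgeR, 1 with limma-voom, 0 with a 2-fold threshold and 3 with total-count or upper-quartile scaling. It ran from 1 to 5 with each library left out. With edgeR, leaving out each library (chosen after seeing the data) gave 0 to 4. The count called higher was 0 under every alternative. For the other dNTP genes, the 4 lower became 1 with edgeR, 2 with limma-voom and 2 with a 2-fold threshold, and the 9 higher became 5, 5 and 4. With each library left out, the DESeq2 counts ran from 1 to 5 lower and from 7 to 10 higher. The edgeR counts, also chosen after seeing the data, ran from 1 to 3 lower and from 1 to 7 higher. The difference in the log2 ratio of S phase members to markers was 0.36, became 0.20 with Pcna and the Mcm genes alone, and reversed to -0.085 with medians of per-gene log2 values. The difference for Rrm2b to Rrm2 was 0.94 and stayed between 0.67 and 1.22. With the replicate block, 2 members were called lower and 0 higher, as without it, with 5 lower and 10 higher other dNTP genes, and the mean paired differences of the ratios are the same by construction (0.94 and 0.36). The lowest count of a member was 154 (Dck, TfR1 knockout 2).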

Other observations

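De novo nucleotide synthesis, upstream of ribonucleotide reductase, was lower for none of 18 genes and higher for 2 in both DESeq2 and edgeR (at an unadjusted p under 0.05, 3 and 2 were lower and 2 and 2 higher). Impdh2, which commits IMP to guanine nucleotides, had 1328, 1315 and 1263 normalized counts in Control libraries, and 1837, 2051 and 2249 in TfR1 knockout libraries (log2 fold change 0.65, SE 0.15, DESeq2 adjusted p 4.27e-04). Ctps, which makes CTP from UTP, had 867, 807 and 594 in Control libraries, and 1373, 1267 and 1209 in knockout libraries (0.76, SE 0.20, DESeq2 adjusted p 0.00303). Neither gene overlapped between groups, and the list's median log2 fold change was -0.09.

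The genes whose values followed a member most closely over the 6 libraries were picked by Pearson r of log2 values from 12114 genes that averaged 100 normalized counts or more. The points share the group difference and 6 libraries, and the highest r of so many genes is high by selection. For Rrm1 they were Tex9 (r 0.999), Cep55 (0.998), Spaca6 (0.996), Atad2 (0.996) and Wnt5b (0.995), and r to its partner Rrm2 was 0.80. For Rrm2 they were Arhgap4 (0.999), Athl1 (0.998), Mrpl17 (0.998), Cpsf4l (0.997) and Tle2 (0.997), 5 genes without an adjusted p under 0.05 in DESeq2. For Rrm2b they were Taok3 (0.984), Dhps (0.979), Mdp1 (0.975), Dsc2 (0.975) and Tapbpl (0.972), and for Samhd1 they included Mid1 (0.983), Atp8a1 (0.972), Abhd12 (0.969) and Aoc1 (0.968). Samhd1 and Rrm2b, the members with the highest knockout to Control ratio, had an r of 0.88 with each other. With group means removed it was 0.94, and the r of Samhd1 to the other members ran from 0.59 (Tk1) to 0.93 (Rrm2). The pair thus did not stand apart within groups.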
